A study of Mus musculus with 20 samples.

Results

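The unfolded protein response adjusts the folding capacity of the endoplasmic reticulum (ER) to the load of proteins entering it. Sensors in the ER membrane detect unfolded protein: the IRE1 enzymes (Ern1 and Ern2) cut Xbp1 mRNA so that an active transcription factor is made, PERK raises translation of ATF4, and ATF6 is cleaved to release another transcription factor. Chaperones and folding enzymes of the ER are their classical targets, and lasting stress induces CHOP, encoded by Ddit3. In the colon this machinery is heavily used by goblet cells, which secrete large amounts of mucin, and Ern2 is known as the IRE1 of mucus-secreting epithelium.

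The values of 10 unfolded protein response genes were taken from a transcript table of mouse colonic organoids (colonoids), by gene symbol. They were 2 sensors (Ern1 and Ern2), 3 transcription factors (Xbp1, Atf4 and Ddit3) and 5 chaperones or folding enzymes (Hspa5, Hsp90b1, Pdia4, Dnajb9 and Sdf2l1), out of 35240 gene symbols. Their 34 transcripts were among 113193 in the table. All 10 genes were among the 13539 with a mean value of at least 1 that entered the tests.

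Colonoids were grown from crypts of WT (C57BL/6) and Tnfr2-/- mice, the latter lacking TNFR2 (encoded by Tnfrsf1b) in the whole body from a targeted allele. Cultures in Matrigel with IntestiCult medium had been passaged 5 times, filtered, seeded and collected on 5 days post-passage (DPP). The labels name no other allele or agent. The study states that the organoids sequenced here were not brought down to single cells at passage. Its methods add inhibitors to cultures seeded as single cells, and whether these were used here is not given in the sources used here. The collection days were days 1, 2 and 3, called early (12 libraries), and days 5 and 7, called late (8 libraries). There were 20 libraries from 2 mice per genotype, 1 library for each mouse and day, where the replicate number of the labels was read as the mouse although no label states this across days. In Tnfr2-/- cultures same-numbered libraries did not deviate together across days (correlations -0.051 to 0.08). Counts over mice rest on the numbering alone there. The 5 libraries of a mouse are repeated samples, so p-values measure the spread among libraries more than among animals.

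Levels are given as normalised expression, the size-factor-normalised TPM (an abundance per transcript length, scaled to a fixed total) summed over a gene's transcripts. They sum to between 900655 and 1111080 in a library. The study's methods give an approximate read number per sample, but no depth per library was in the table. The counting error of values of a few units is therefore known only roughly. Tnfrsf1b was lower in Tnfr2-/- libraries, at 5.80 ± 2.84 against 15.3 ± 3.09 in WT (SD, n = 10 each), and was reduced rather than missing. The epithelial markers, Epcam and keratins among them, summed to 11330 to 19620 in the libraries. Fibroblast markers were present throughout, at 1194 to 4218 in WT and 3096 to 8327 in Tnfr2-/- libraries. These are bulk cultures, in which fewer cells of a type and less RNA per cell cannot be told apart.

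The genes differed widely in level. Hsp90b1, the HSP90 chaperone of the ER, averaged 597 and Hspa5, the abundant chaperone BiP that also holds the sensors inactive, averaged 464 units over the 20 libraries. Their main coding transcripts were level, at 452 (Hsp90b1-201) and 451 (Hspa5-202). Atf4 averaged 225, Pdia4, a protein disulfide isomerase, 116, and Xbp1 99.7. Below them lay Ddit3 at 37.2, Sdf2l1 at 36.2, Dnajb9 at 17.8, Ern1 at 15.2 and Ern2 at 3.55. Most neighbours in this order kept it in at least 15 of 20 libraries. Ddit3 and Sdf2l1 did not, since Ddit3 was the higher in 10 of 20 libraries.

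**Figure D1:**
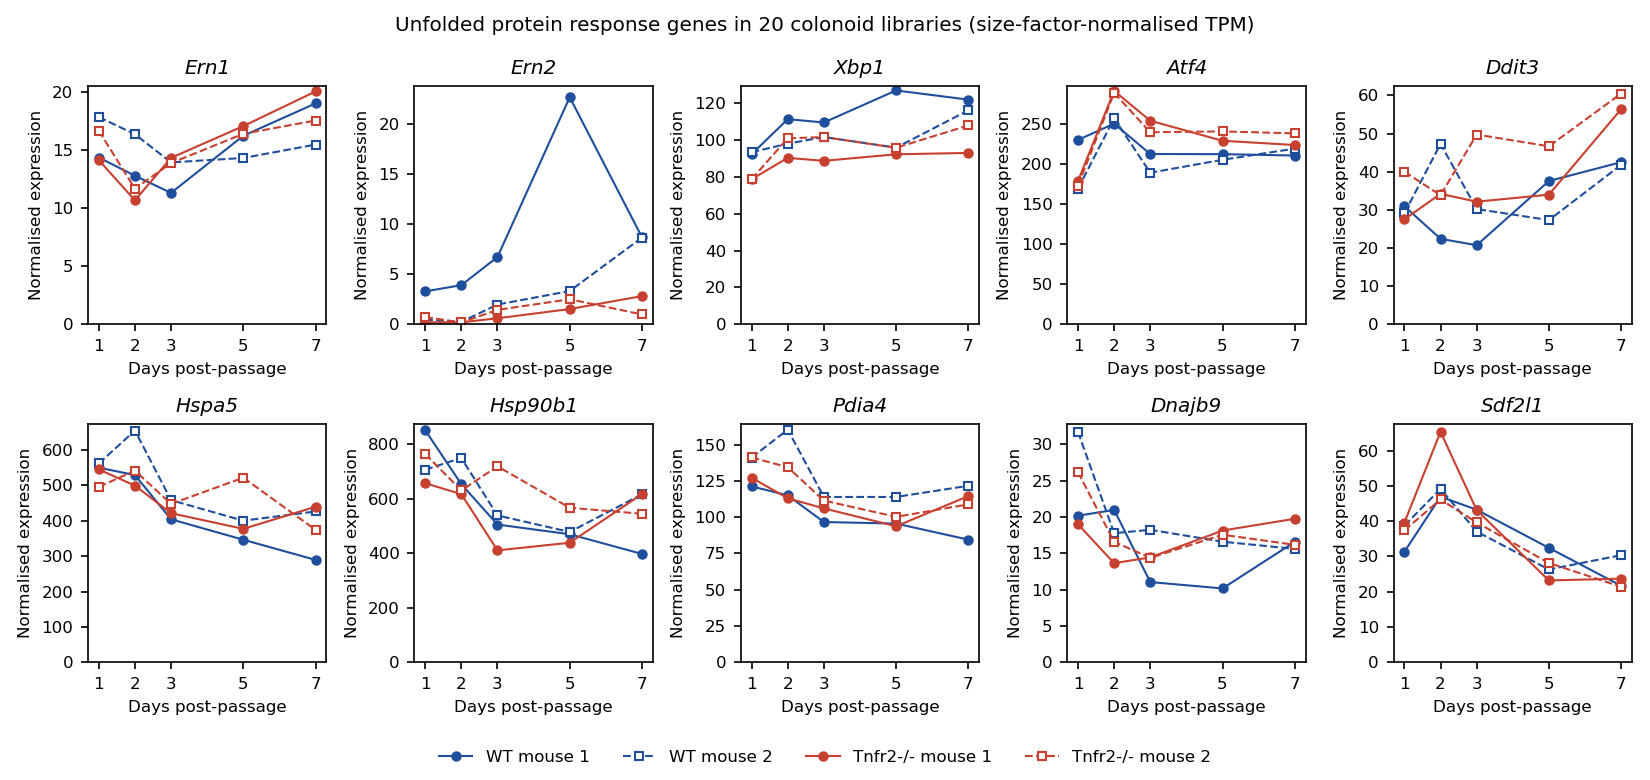
Normalised expression (y axis, size-factor-normalised TPM, from 0) of the 10 genes against days post-passage (x axis), with 1 point per library and 1 line per mouse. Ern2 is highest in WT mouse 1 at 5 DPP (22.7), and Sdf2l1 lies between 21.4 and 32.4 in the late libraries.

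The first question was how the folding machinery changed as colonoids matured. From early to late days 3 of the 5 chaperones and folding enzymes fell (Hspa5, Hsp90b1 and Sdf2l1) and both sensors rose (Ern1 and Ern2), averaged over the genotypes and at an adjusted p under 0.05 in limma. Over all genes tested, 32.7% were called in this comparison, 18% higher and 14.7% lower, and the count of 5 in 10 is to be read against these shares. The median log2 change of the 10 genes was -0.08, beside 0.02 over all genes. All 5 chaperones and folding enzymes had an estimate below 0, with a median of -0.32.

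Sdf2l1, a partner of ER chaperones that is strongly induced by ER stress, changed most reliably. In WT its values at 1, 2, 3, 5 and 7 DPP were 31.3, 46.9, 43.2, 32.4 and 21.7 in mouse 1, and 38.7, 49.1, 37.0, 26.3 and 30.4 in mouse 2. In Tnfr2-/- cultures they were 39.6, 65.3, 43.1, 23.2 and 23.7 in mouse 1, and 37.4, 46.1, 39.6, 28.1 and 21.4 in mouse 2. Each of the 4 mice had its highest level at 2 DPP, and in Tnfr2-/- cultures every late library lay below every early one, which 7.36% of all genes tested also did. The mean went from 43.1 ± 8.55 (SD, n = 12) early to 25.9 ± 4.10 (SD, n = 8) late. On the log2(value + 1) scale Sdf2l1 fell by 0.71 ± 0.10 (SE, adjusted p = 0.00011). It was called after every one of 24 omissions of a library or mouse, with adjusted p of at most 0.0213.

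Within each genotype the fall of Sdf2l1 was also called, at -0.55 ± 0.14 (SE, adjusted p = 0.012) in WT and -0.86 ± 0.14 (SE, adjusted p = 0.00083) in Tnfr2-/- cultures by limma. The WT call was lost without WT mouse 1 at 7 DPP and without any 1 of the 4 mice (adjusted p 0.0536 to 0.108). The Tnfr2-/- call was lost without Tnfr2-/- mouse 1 or Tnfr2-/- mouse 2, although the changes were still -0.71 and -1.01. These are limma fits in which the remaining libraries carry the spread.

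Hspa5 fell as well. WT mouse 1 had 550, 529, 404, 347 and 290 units from 1 to 7 DPP, and WT mouse 2 had 562, 655, 458, 400 and 426. Tnfr2-/- mouse 1 had 545, 500, 422, 377 and 440, and Tnfr2-/- mouse 2 had 496, 542, 448, 522 and 375. The late mean was the lower in 4 of 4 mice, although early and late libraries overlapped. From 509 ± 70.0 (SD, n = 12) to 397 ± 69.0 (SD, n = 8), the fall was 0.37 on the log2 scale (SE 0.09, adjusted p = 0.00594). Without Tnfr2-/- mouse 1 or Tnfr2-/- mouse 2 the adjusted p was 0.0963 or 0.0648, with estimates of -0.34 and -0.39. In limma, Hspa5 passed the test in WT (-0.52 ± 0.12 SE, adjusted p = 0.0104). It did not pass in Tnfr2-/- cultures (-0.21 ± 0.12 SE, adjusted p = 0.273). The WT call was lost without WT mouse 1 at 7 DPP, and without WT mouse 1 or either Tnfr2-/- mouse (adjusted p 0.0551 to 0.13). The difference between the genotypes, 0.32 ± 0.18 (SE), did not pass its own test (adjusted p = 0.515).

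Hsp90b1 went from 651 ± 122 (SD, n = 12) to 517 ± 82.3 (SD, n = 8). WT mouse 1 was lower at each step, from 852 at 1 DPP to 398 at 7 DPP, while WT mouse 2 ended at 617, Tnfr2-/- mouse 1 at 618 and Tnfr2-/- mouse 2 at 546. The log2 change was -0.32 ± 0.11 (SE, adjusted p = 0.0377). Of the 5 calls over both genotypes it lies nearest the threshold, and it was lost in 17 of 24 omissions (adjusted p up to 0.238). These were WT mouse 1 at 1, 5 or 7 DPP, WT mouse 2 at 2, 3 or 5 DPP, Tnfr2-/- mouse 1 at 2, 5 or 7 DPP, Tnfr2-/- mouse 2 at 1, 2, 3 or 7 DPP, and each whole mouse.

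Pdia4 and Dnajb9, an HSP40 co-chaperone that acts on BiP, were not called in the comparison as designed. Pdia4 had a late mean below its early mean in 4 of 4 mice, at 104 ± 12.6 (SD, n = 8) against 123 ± 17.99 (SD, n = 12), with a log2 change of -0.24 ± 0.09 (SE, adjusted p = 0.0529). Pdia4 was called once the mouse was a block, over both genotypes (adjusted p = 0.00591) and in WT (adjusted p = 0.0357). With no block it was called over both genotypes after rescaling by median of ratios (adjusted p = 0.0404) and in 6 of 24 omissions (adjusted p 0.0139 to 0.35 over the 24), and in WT without WT mouse 2 at 7 DPP (adjusted p = 0.0448). Dnajb9 ranged from 10.2 to 31.7, its log2 change was -0.15 ± 0.13 (SE, adjusted p = 0.407), and its highest value was in WT mouse 2 at 1 DPP.

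An ER stress element, the paired site read by ATF6 together with NF-Y, was looked for in the promoters because several chaperones fell together. RefSeq promoters (GRCm38.p6, 250 bases before to 50 after the gene start in the reference table) were given for 9 of the 10 genes, and that of Ern2 is not analysed here. The letters of the element, CCAAT and CCACG with 9 free bases between them, were sought on either strand. They were in 39 of 32851 promoters (0.119%) and in 2 of the 9, Hspa5 and Hsp90b1. Sdf2l1, Pdia4 and Dnajb9 had no match. The capitals below are the fixed letters of the element, which is read in reverse at the second site of Hsp90b1. The Hspa5 window lies at chr2:34772020-34772049 (+ strand), from 70 to 41 bases before the RefSeq start, and overlaps a GENCODE exon of the minor transcript Hspa5-201. The Hsp90b1 window lies at chr10:86705520-86705669 (− strand), from 225 to 76 bases before the start and outside annotated exons.
Hspa5: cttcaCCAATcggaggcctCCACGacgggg
Hsp90b1: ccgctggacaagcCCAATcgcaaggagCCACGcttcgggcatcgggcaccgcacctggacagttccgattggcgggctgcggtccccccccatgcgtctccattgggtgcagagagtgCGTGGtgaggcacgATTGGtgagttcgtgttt
The ER stress element II (ATTGG and CCACG with 1 free base between them, in 0.0365% of promoters), the unfolded protein response element (TGACGTGG, 0.676%) and the C/EBP-ATF core (TGATG and AA with 1 free base between them, 3.97%) had no match in the windows of the 9 genes. A match is a description of letters only.

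Ern2 was the most variable of the genes. WT mouse 1 had 3.28, 3.90, 6.71, 22.7 and 8.69 units from 1 to 7 DPP, and WT mouse 2 had 0.454, 0.228, 1.96, 3.31 and 8.65. Tnfr2-/- mouse 1 had 0.186, 0.186, 0.592, 1.51 and 2.81, and Tnfr2-/- mouse 2 had 0.704, 0.175, 1.43, 2.49 and 0.974. The late mean was the higher in 4 of 4 mice, and WT mouse 1 was the highest library at every day. Over both genotypes the log2 change was 1.31 ± 0.37 (SE, adjusted p = 0.0156). This call was lost without Tnfr2-/- mouse 1 (1.16, adjusted p = 0.213) or Tnfr2-/- mouse 2 (1.46, adjusted p = 0.123).

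In WT the rise of Ern2 was called by limma (1.68 ± 0.53 SE, adjusted p = 0.0384), from a mean of 2.76 ± 2.43 (SD, n = 6) to 10.8 ± 8.29 (SD, n = 4). That call was lost in 10 of 24 omissions. Without WT mouse 1 at 5 DPP the change was 1.07 (adjusted p = 0.192). The other losses, with adjusted p of 0.0502 to 0.14, were without WT mouse 1 at 7 DPP, WT mouse 2 at 1, 2, 3 or 7 DPP, either Tnfr2-/- library at 2 DPP or either Tnfr2-/- mouse. In Tnfr2-/- cultures the estimate was 0.94 ± 0.53 (SE, adjusted p = 0.241), and the same estimate was called when WT mouse 1 (adjusted p = 0.0441) or WT mouse 2 (adjusted p = 0.0376) was left out of the shared spread. The change of Ern2 from early to late days did not pass the test of its difference between genotypes (-0.75, adjusted p = 0.73).

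Ern1, the IRE1 found in most cell types, ranged only from 10.7 to 20.0. In WT mouse 1 it went from 14.3, 12.8 and 11.3 early to 16.2 and 19.0 late, and in WT mouse 2 from 17.8, 16.3 and 13.9 to 14.3 and 15.4. In Tnfr2-/- mouse 1 it went from 14.1, 10.7 and 14.3 to 17.03 and 20.01, and in Tnfr2-/- mouse 2 from 16.6, 11.7 and 13.9 to 16.4 and 17.5. The late mean was the higher in 3 of 4 mice, WT mouse 2 being the exception. The change of 0.27 ± 0.09 (SE, adjusted p = 0.0323) was lost in 14 of 24 omissions (adjusted p up to 0.327). These were WT mouse 1 at any of the 5 days, Tnfr2-/- mouse 1 at 1, 2, 5 or 7 DPP, Tnfr2-/- mouse 2 at 3 or 5 DPP, and each whole mouse except WT mouse 2. In Tnfr2-/- cultures Ern1 was 0.38 (adjusted p = 0.0519) and was called in 6 of 24 omissions, each of them of a WT library or mouse (adjusted p 0.0358 to 0.0491).

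None of the transcription factors was called in the time comparisons as designed. Atf4 was flat between the periods, at 228 ± 43.1 (SD, n = 12) early and 222 ± 13.0 (SD, n = 8) late (log2 change -0.01 ± 0.06 SE, adjusted p = 0.9). Within the early days it was highest at 2 DPP in 4 of 4 mice, between 250 and 291 units. Ddit3 went from 33.2 ± 8.83 to 43.3 ± 11.1 (SD), with a log2 change of 0.38 ± 0.15 (SE, adjusted p = 0.0637). Over 24 omissions the Ddit3 estimate ran from 0.20 to 0.56, and it was called in 4 of them, without WT mouse 2 at 2 DPP (adjusted p = 0.0122) or at 3 DPP (adjusted p = 0.0476), without Tnfr2-/- mouse 2 at 3 DPP (adjusted p = 0.0435) and without the whole of WT mouse 2 (adjusted p = 0.0202). Xbp1 went from 95.4 ± 10.5 to 106 ± 14.0 (SD), higher late in 4 of 4 mice, at 0.15 ± 0.07 (SE, adjusted p = 0.104). Xbp1 was called without WT mouse 2 at 5 DPP, over both genotypes (0.20, adjusted p = 0.026) and in WT (0.28, adjusted p = 0.0488).

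Taken within genotypes, the called genes were 1 higher (Ern2) and 2 lower (Hspa5 and Sdf2l1) of 10 in WT, beside 20.1% of all genes called, 11.6% higher and 8.52% lower. In Tnfr2-/- cultures 1 of 10 fell (Sdf2l1), beside 20.3% of all genes, 10.4% higher and 9.93% lower. The libraries of a time comparison are read as coming from the same mice, which the data do not bear out in Tnfr2-/- cultures. With the mouse as a replicate block the counts were 5 of 10 in WT, 1 in Tnfr2-/- cultures and 7 for both. Beside them stand 24.9%, 24.7% and 36.7% of all genes called under the same block. The block added Hsp90b1 (adjusted p = 0.0426) and Pdia4 in WT, and Ddit3 (adjusted p = 0.0429) and Pdia4 for both genotypes together.

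**Figure D2:**
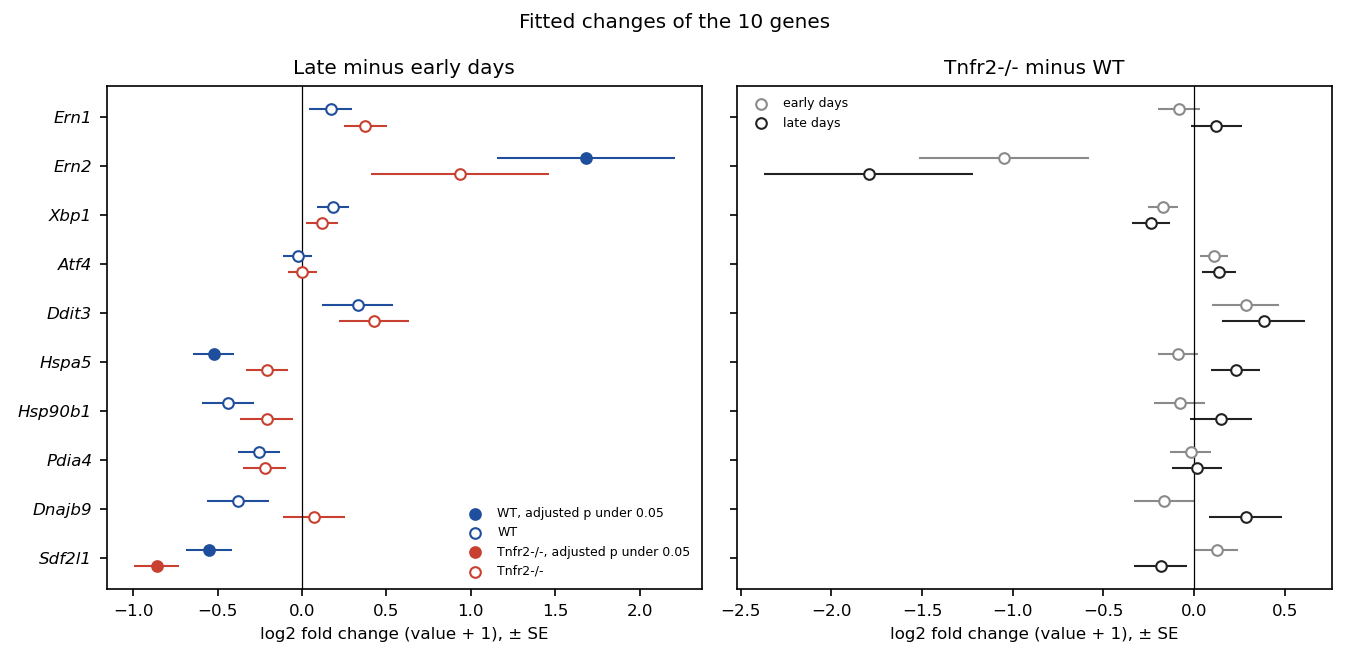
Log2 fold change of value + 1 (x axis) with its standard error (bars) for each of the 10 genes, late minus early days in each genotype (left) and Tnfr2-/- minus WT in early and late days (right), with filled points for an adjusted p under 0.05. On the left Sdf2l1 is filled in both genotypes, Hspa5 and Ern2 in WT, and no point on the right is filled.

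Other markers moved between the same days. The 9 goblet markers (7 with a mean of at least 1) summed to 9.60 to 692 in WT early and 269 to 2309 in WT late libraries. In Tnfr2-/- libraries the sums were 13.0 to 72.9 early and 203 to 308 late. Of the 7 tested, 6 were called higher late over both genotypes. Of the 4 deep secretory markers 3 were called higher, and of the 5 absorptive markers 1 (Car1). Of the 8 fibroblast markers 2 were called higher over both genotypes (Col1a1 and Col1a2). In WT 3 of the 8 were above 0, with a median of -0.55 and 1 called lower (Dcn), and in Tnfr2-/- cultures 8 of 8 were above 0, with a median of 0.65 and 3 called higher (Col1a1, Col1a2 and Dcn). Of the 8 general epithelial markers 4 were called higher over both genotypes (Epcam, Cdh1, Vil1 and Cdx1) and 2 lower (Krt8 and Krt18). In the list of proliferation and stem markers Mki67 and Top2a fell and the stem cell marker Lgr5 rose, by 2.07 on the log2 scale (limma adjusted p = 2.81e-05). The part of these markers in the changes of the chaperones and of Ern2 was not tested. Of the 7 leukocyte and plasma cell markers only Cd68 and Lyz2 had a mean of at least 1, and the list summed to 8.99 to 17.5 in WT and 15.7 to 45.1 in Tnfr2-/- libraries. Cd68, a lysosomal protein abundant in macrophages, made up most of this, with 10.5 ± 3.12 units in WT and 24.7 ± 9.19 in Tnfr2-/- libraries (SD, n = 10 each). It was called higher in Tnfr2-/- cultures over all days (1.14 ± 0.17 SE, limma adjusted p = 0.000449), early (0.99, adjusted p = 0.0283) and late (1.35, adjusted p = 0.0064), and higher late than early over both genotypes (0.46, adjusted p = 0.0379). Ptprc, the common leukocyte marker, was at most 0.753 and Mzb1, an ER protein of plasma cells, was at 0 in all libraries but 1. Jchain reached 5.57 in Tnfr2-/- mouse 2 at 2 DPP.

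**Figure D3:**
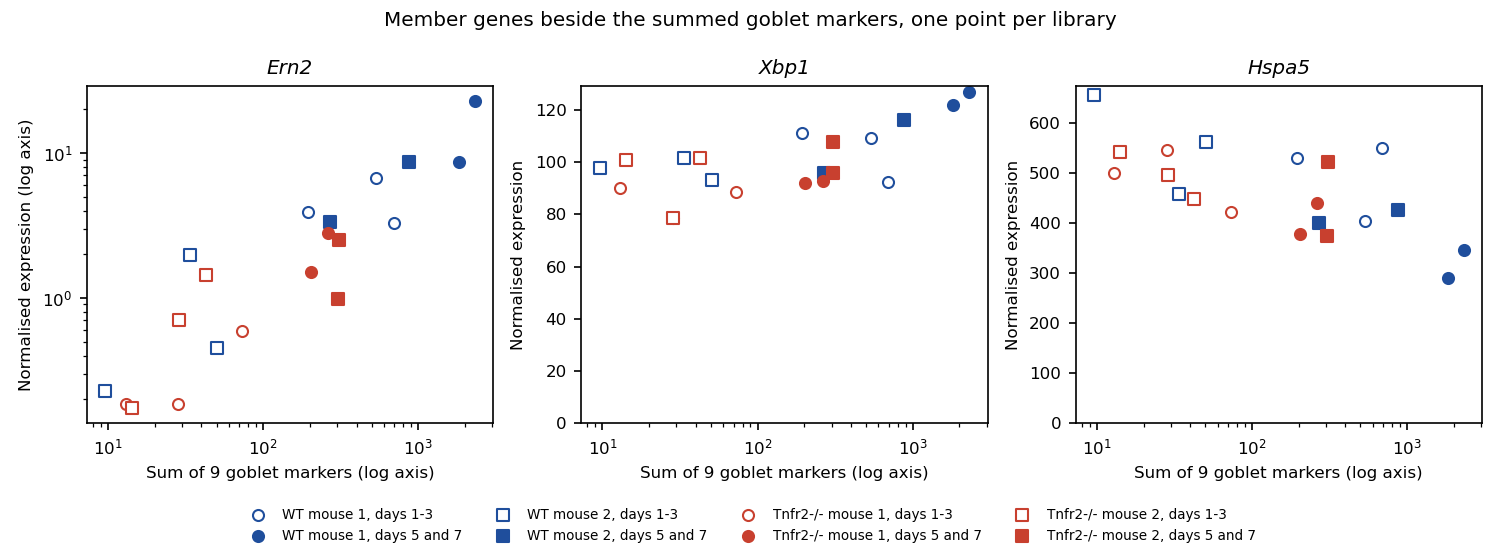
Normalised expression of Ern2 (log axis), Xbp1 and Hspa5 (axes from 0) against the sum of 9 goblet markers (x axis, log), 1 point per library, open for days 1 to 3 and filled for days 5 and 7. The library with the highest marker sum (2309, WT mouse 1 at 5 DPP) had the highest Ern2 (22.7) and Xbp1 (127), and the lowest sum (9.60, WT mouse 2 at 2 DPP) had the highest Hspa5 (655).

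The second question was whether loss of TNFR2 altered these genes. Over all days Ern2 alone of the 10 passed the test, and it was lower in Tnfr2-/- cultures. Its means were 1.11 ± 0.95 in Tnfr2-/- and 5.99 ± 6.60 in WT libraries (SD, n = 10 each), a log2 difference of -1.35 ± 0.33 (SE, adjusted p = 0.0206). Over all genes 7.6% were called here, 4.51% higher and 3.09% lower. The Tnfr2-/- pair lay below the WT pair at 4 of 5 days, 1 DPP being the exception, as was so at 4 or 5 days for 3.02% of all genes. Markers of several epithelial cell types had estimates below 0 in the same comparison. These were 7 of 7 goblet markers, with 2 called (Fcgbp and Spdef), 4 of 4 deep secretory markers, 1 of which (Spink4) is also in the goblet list, with a median of -1.58 and none called although 4 had an unadjusted p under 0.05, and 4 of 5 absorptive markers, with Car1 called (-3.02, adjusted p = 0.0206). Of the general epithelial markers 5 of 8 were above 0 over all days and 2 were called higher, Epcam (0.36, adjusted p = 0.0335) and Cdh1 (0.25, adjusted p = 0.0221). At the late days 7 of 7 goblet, 4 of 4 deep secretory, 4 of 5 absorptive and 5 of 8 general epithelial markers were below 0, with medians of -1.96, -1.73, -1.003 and -0.12 and 1 called lower (Car1). All 3 proliferation and stem markers were below 0 over all days (median -0.34), early (-0.19) and late (-0.37), with none called. Early, WT mouse 1 stood apart. Its Muc2 was 12.5, 15.9 and 37.8, against 0.979, 0.338 and 0 in WT mouse 2 and 0.259 to 2.02 in Tnfr2-/- libraries. Early Car1 was 44.8 to 279 in WT mouse 1, 1.89 to 4.98 in WT mouse 2 and 0.974 to 15.95 in Tnfr2-/- libraries. Late, WT mouse 2 had Muc2 of 23.9 and 70.5, against 13.75 to 24.4 in Tnfr2-/- libraries. Its late Car1 was 130 and 196.5, against 6.14 to 20.4. The part of these markers in the lower Ern2 was not tested.

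The Ern2 difference rested on few animals. Without WT mouse 1 it was -0.61 (adjusted p = 0.274), without WT mouse 2 -2.09 (adjusted p = 0.000224), without Tnfr2-/- mouse 1 -1.28 (adjusted p = 0.206) and without Tnfr2-/- mouse 2 -1.41 (adjusted p = 0.186). On the means of 2 mice against 2 in limma the adjusted p was 0.443. With the mouse as a correlated block the call was kept.

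At the late days the 4 Tnfr2-/- libraries held 0.974 to 2.81 units of Ern2 and the 4 WT libraries 3.31 to 22.7, without overlap. Of all genes tested, 6.07% lay wholly lower in this way. The log2 difference was -1.80 ± 0.58 (SE, limma adjusted p = 0.0844). It ranged from -2.41 to -1.18 over single libraries left out. Ern2 was called without WT mouse 2 at 5 DPP (-2.41, adjusted p = 0.0166), as was Xbp1 (-0.34, adjusted p = 0.0491), and without the whole of WT mouse 2 (-2.41, adjusted p = 0.00464). Without WT mouse 1 the Ern2 difference was -1.18, and over all 24 omissions its adjusted p reached 0.487. None of the 10 genes was called at the late days, beside 6.45% of all genes, and 2 had an unadjusted p under 0.05. The replicate number as a block gave 1 call, Ern2 (adjusted p = 0.0462), beside 9.17% of all genes. Same-numbered WT and Tnfr2-/- libraries were not paired, so this block joins unrelated mice. At the early days none was called either, beside 1.2% of all genes, with 1 at an unadjusted p under 0.05. Ern2 then differed by -1.05 ± 0.47 (SE, adjusted p = 0.368). That value depended on which WT mouse was kept, at -0.23 (adjusted p = 0.81) without WT mouse 1 and -1.87 (adjusted p = 0.0116, called) without WT mouse 2.

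Late Atf4 values of the genotypes did not overlap, and Atf4 was not called. Its WT values at 5 and 7 DPP were 212 and 210 in mouse 1 and 205 and 219 in mouse 2, and its Tnfr2-/- values were 229 and 223 in mouse 1 and 240 and 238 in mouse 2. Every Tnfr2-/- late library was above every WT late one, as for 5.35% of all genes, and the difference did not pass the limma test. Over all days Atf4 differed by 0.12 ± 0.06 (SE, adjusted p = 0.288), with both Tnfr2-/- libraries above both WT ones at 4 of 5 days, beside 3.63% of all genes so placed at 4 or 5 days. The estimate was 0.17 (adjusted p = 0.0432) without WT mouse 1 at 1 DPP and 0.06 (adjusted p = 0.65) without WT mouse 2.

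Xbp1 averaged 92.8 ± 9.42 in Tnfr2-/- and 107 ± 12.3 in WT libraries (SD, n = 10 each), a difference just outside the threshold (-0.20 ± 0.06 SE, adjusted p = 0.0512). It was called without WT mouse 2 at 2 DPP (adjusted p = 0.0377) or at 5 DPP (adjusted p = 0.0277), and without the whole of that mouse (adjusted p = 0.0196). Without WT mouse 1 it was -0.12, and over 24 omissions the adjusted p reached 0.423. Ddit3 was 41.5 ± 11.2 in Tnfr2-/- and 33.0 ± 8.92 in WT libraries (SD, n = 10 each), a log2 difference of 0.32 ± 0.14 (SE, adjusted p = 0.169). It was called without WT mouse 2 at 2 DPP (0.42, adjusted p = 0.0342), and was 0.16 (adjusted p = 0.728) without Tnfr2-/- mouse 2. The highest Ddit3 values, 56.4 and 60.5, were those of the 2 Tnfr2-/- libraries at 7 DPP. Fibroblast markers were higher there as well, with late sums of 3652 to 8327 in Tnfr2-/- and 1194 to 3926 in WT libraries, 2 of the 8 called (Dcn and Vim) and none at 0. Their part in the Ddit3 values was not tested. The 5 chaperones and Ern1 had estimates between -0.01 and 0.04 over all days, with adjusted p between 0.83 and 0.998.

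None of the 10 genes was called by limma at any single day, with 2 libraries a group. Over all genes 0.0739%, 0.096%, 0.155%, 1.65% and 0.82% were called at 1, 2, 3, 5 and 7 DPP, and of the 10 genes 0, 0, 1, 1 and 1 had an unadjusted p under 0.05. The change of the genotype effect from early to late days was also called for none of the 10 genes, with none at an unadjusted p under 0.05, beside 0.148% of all genes. The median of the 10 was 0.07 in that contrast, beside -0.03 over all genes.

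The same fits were run on transcript models. Of the 34 transcripts, 25 had a mean of at least 1. None of the 25 was called by limma between genotypes, beside 0.714% of all transcripts over all days, 0.142% early, 0.61% late and 0.0207% in the interaction, and 3, 2, 2 and 1 had an unadjusted p under 0.05. Over both genotypes the main coding transcripts of Sdf2l1 (Sdf2l1-201), Hspa5 (Hspa5-202) and Hsp90b1 (Hsp90b1-201) fell, and Ern2-202 rose, 4 transcripts of 25, beside 8.31% of all transcripts. Hsp90b1-201 went from 493 ± 71.7 (SD, n = 12) to 390 ± 63.5 (SD, n = 8), at -0.34 ± 0.08 (SE, adjusted p = 0.0226). A retained-intron model of 268 bases, Hsp90b1-205, held 18.9% of the summed Hsp90b1 signal, so the gene sum partly reflects a short model. In WT 3 of these transcripts were called (Ern2-202, Hsp90b1-201 and Hspa5-202), beside 3.41% of all, and in Tnfr2-/- cultures 1 (Sdf2l1-201), beside 3.33%.

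Ern2 is listed with a coding transcript (Ern2-201, 48.2% of the gene sum) and one annotated for nonsense-mediated decay (Ern2-202, 51.8%). Whole libraries were assigned to either form: Ern2-202 held over 99% of Ern2 in 5 libraries, under 1% in 12 and a share between in 3. Its mean share was 12.4% early and 62.8% late (exact permutation test within mice, two-sided p = 0.0116, adjusted p = 0.139 over 12 shares tested). With values of a few units and forms of similar length, this split says little, and the gene sum is the safer value. None of the 12 shares passed the correction, the main Xbp1 transcript (Xbp1-201) included, at 87.5% in WT and 90.8% in Tnfr2-/- libraries (exact permutation test within days, two-sided p = 0.046, adjusted p = 0.276).

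Xbp1 activity depends on the removal of 26 bases of its mRNA by IRE1, which is shown because the table cannot see it. In Xbp1-201 the segment is bases 815 to 840, at chr11:5524279-5524304 (GRCm38, + strand) in exon 4, inside the coding sequence. Capitals mark the removed bases.
Xbp1-201: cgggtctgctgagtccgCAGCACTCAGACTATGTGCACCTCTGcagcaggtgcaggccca
Without the segment the longest reading frame of Xbp1-201 goes from 267 to 371 codons. The segment is held by 3 of the 4 Xbp1 transcripts in the table and the spliced junction by 0, so spliced and unspliced Xbp1 are counted together. The Xbp1 values above are therefore total mRNA and no measure of IRE1 activity.

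A wider list of 73 genes of the response was read in the same fits, of which 72 were tested. Late against early over both genotypes, 17 rose and 13 fell, beside 18% higher and 14.7% lower of all genes, with a median of -0.11 beside 0.02. Among other chaperones, oxidoreductases and lectins of the ER, 7 of 19 fell and 2 rose. Manf, a secreted ER stress factor, fell by 0.53 ± 0.07 (SE, adjusted p = 0.00011), from 196 to 134 units. The risers were Agr2, the disulfide isomerase for mucin that is also one of the goblet markers, at 3.16 ± 0.56 (SE, adjusted p = 0.000837), and Ero1l, the ER oxidase, at 1.39 ± 0.18 (SE, adjusted p = 7e-05). Ero1l is also a known hypoxia-responsive gene.

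Of the other sensors and activating proteases 4 of 10 rose and none fell in this comparison, Creb3l3, Creb3l4, Eif2ak3 (PERK) and Atf6. Of the genes for ER-associated degradation and translocation 4 of 23 rose and 3 fell. Of the ATF4 and CHOP branch targets 7 of 20 rose and 3 fell. Over all genes tested the shares were 18% and 14.7%, as above. Nupr1, a stress-induced nuclear protein, rose by 1.25 ± 0.15 (SE, adjusted p = 4.88e-05). Phgdh and Psat1, enzymes of serine synthesis, fell by 0.72 ± 0.08 (SE, adjusted p = 3.49e-05) and 0.59 ± 0.16 (SE, adjusted p = 0.0103).

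Within WT, 9 of the 72 rose and 14 fell, beside 11.6% and 8.52% of all genes. Agr2, Creb3l3 and Creb3l4 rose most, by 3.63, 2.01 and 1.44 on the log2 scale. Cebpb, Sec61g and Fkbp11 fell most, by 0.87, 0.77 and 0.68. Within Tnfr2-/- cultures 9 rose and 6 fell, beside 10.4% and 9.93% of all genes, with Agr2 (2.68), Ero1l (1.58) and Nupr1 (1.19) rising most. Phgdh, Mthfd2 and Manf fell most there, by 1.03, 0.57 and 0.46.

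**Figure D4:**
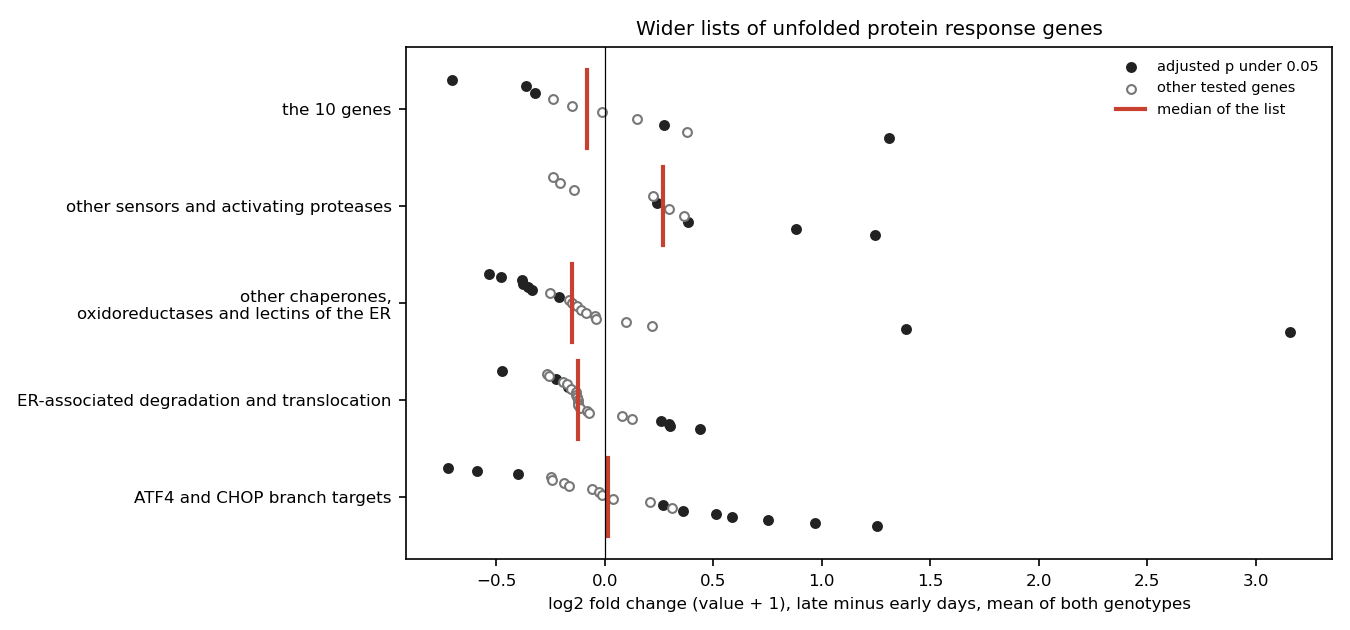
Log2 fold change of value + 1, late minus early days averaged over the genotypes (x axis), for each tested gene of the 10 and of 4 further lists (rows), filled where the adjusted p was under 0.05, with the median of each list as a red bar. The lists of chaperones and of degradation genes have medians of -0.15 and -0.12, with Agr2 the point farthest to the right at 3.16.

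Between genotypes few genes of the wider list were called. Over all days 2 of 72 were higher (Nupr1 and Eif4ebp1) and 1 lower (Syvn1) in Tnfr2-/- cultures, beside 4.51% and 3.09% of all genes. Nupr1 averaged 1352 against 829 units in WT, at 0.77 ± 0.16 (SE, adjusted p = 0.00654), and Syvn1, the ubiquitin ligase of ER-associated degradation, 20.7 against 25.2, at -0.28 ± 0.08 (SE, adjusted p = 0.0429). Early, 1 of 72 was called, beside 0.768% of all genes called higher. It was Chac1, a CHOP-branch enzyme that degrades glutathione, at 0.85 ± 0.17 (SE, adjusted p = 0.0312). Late, 4 of 72 were called, all higher, beside 3.8% of all genes called higher, with Cebpb at 1.23 (adjusted p = 0.00862), Atf3 at 0.86 (adjusted p = 0.0226), Fkbp11 at 0.86 (adjusted p = 0.0169) and Sec61g at 0.49 (adjusted p = 0.0477). Of the 20 ATF4 and CHOP branch targets, 17 had estimates above 0 over all days, with a median of 0.21 beside -0.03 for all genes, and 2 were called. Early, 17 were above 0 as well, with a median of 0.27 beside -0.01. Late, 12 of 20 were above 0, with a median of 0.08 beside -0.05, and 2 were called. The 8 fibroblast markers had 7 estimates above 0 over all days, with a median of 0.45, 5 early, with a median of 0.29, and 8 late, with a median of 0.84. Their part in the genotype differences of the wider list was not tested.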

How the data were processed

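Total RNA of 20 colonoid libraries was sequenced as stranded, single-end mRNA libraries. Per the labels and the study's methods, the authors pseudoaligned and quantified reads per transcript with kallisto against mm10 and compared them with sleuth (CASAVA is also named in the submitters' processing notes). The deposited values are a signal, namely TPM divided by a size factor for each library by the authors. The deposited test results of the authors (p-values, q-values and related statistics) were not used. Of 113974 lines, 781 repeated another and were dropped. The 199 transcripts without a symbol held at most 0.099% of any library. Values were summed per symbol (35240), and log2(value + 1) of the 13539 genes with a mean of at least 1 was fitted with limma 3.58.1 (R 4.3.3, mean-variance trend), with Benjamini-Hochberg adjustment over all genes tested and calls at 0.05. A fold change on this scale understates that of low genes. The genotype effect over all days used day as a factor plus genotype, and all other contrasts used means of 10 groups. Transcripts (38671) were fitted likewise. Transcript shares had exact permutation tests. The limma step was tested on simulated data with independent libraries. A spread shared by the libraries of a mouse was not simulated, so that test does not cover repeated samples.

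Genes named outside the 10 are the 3 called genes of the wider list with the largest rise and fall in each comparison, and Tnfrsf1b. Epcam, Fcgbp, Spdef, Dcn, Vim and other markers come from marker lists, and genes of counts of 5 or fewer were named after their values were seen. For Hspa5, Ern2 and Ddit3 the 5 most correlated other genes are named. The members and lists were chosen with earlier results of these data known. Gene coordinates follow GENCODE M21. The Ddit3 sum includes a second, overlapping Ensembl gene listed at 0. Same-numbered WT and Tnfr2-/- libraries of a day were not paired (correlations of deviations -0.054 to 0.076). Same-numbered libraries of different days, read as the same mouse, deviated together in WT (0.1 to 0.307) but no more than unpaired ones in Tnfr2-/- cultures (-0.051 to 0.08), where the data do not bear out the pairing. The time comparisons are also given with this number as a block. Alternatives were another pseudocount, no filter, rescaling, sums per Ensembl gene, blocks, mouse means and leaving out libraries or mice.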

Additional observations from a re-analysis of the deposited data

Results flagged for a closer look

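Of 40 sets of libraries of 1 genotype and period for the 10 genes, 2 held a library far from the others, where chance gives about 5% of sets. That count is near this rate, and the sets pool days, so the rate is only a rough guide. Dnajb9 was 10.2 in WT mouse 1 at 5 DPP, against 15.6 to 16.6 in the other 3 late WT libraries. Sdf2l1 was 65.3 in Tnfr2-/- mouse 1 at 2 DPP, against 37.4 to 46.1 in the other 5 early Tnfr2-/- libraries. That was the day at which Sdf2l1 was highest in every mouse.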

How the results depend on the processing

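Counts of called genes among the 10 moved as follows. Over all days the genotype count of 1 became 2 with no filter on low values (Xbp1, adjusted p = 0.0486) and 0 on mouse means. Late, it went from 0 to 1 with the replicate number as a block. In WT over time it went from 3 to 5 with the replicate block of the mouse. The block changed no other call beyond those given with the results, and the replicate number as a block left 1 call over all days and 0 early, in the interaction and by day. Leaving out each library or mouse gave 0 to 3 calls over all days, 0 to 1 early, 0 to 2 late, 0 in the interaction, 0 to 4 for WT, 0 to 3 for Tnfr2-/- cultures and 1 to 6 for both over time. Rescaled by median of ratios, Pdia4 turned to 0.013 over all days and Atf4 to -0.01 over time in Tnfr2-/- cultures, and Pdia4 was called over both genotypes (adjusted p = 0.0404). With no filter, Ern2 in WT (adjusted p = 0.0712) and Hsp90b1 over both genotypes (adjusted p = 0.0708) were no longer called. With a pseudocount of 0.5, 7 in place of 8 transcript calls remained, with Ern2-202 in WT lost (adjusted p = 0.0575). The cause was not tested.

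Estimates near 0 changed sign in some omissions, none of them called. Over all days and single libraries the ranges were -0.012 to 0.077 for Hspa5, -0.048 to 0.067 for Hsp90b1, -0.052 to 0.039 for Pdia4, -0.062 to 0.073 for Dnajb9 and -0.047 to 0.048 for Sdf2l1. Without WT mouse 1 they were -0.089, -0.055 and -0.151 for Hspa5, Hsp90b1 and Dnajb9 and -0.031 for Sdf2l1. Pdia4 was 0.165 without WT mouse 2 and 0.045 without Tnfr2-/- mouse 1, where Sdf2l1 was -0.055. Without Tnfr2-/- mouse 2, Hsp90b1 was -0.112 and Dnajb9 -0.024. Xbp1 in the interaction lay between -0.166 and 0.034 over libraries and was 0.006 without WT mouse 1. Over time in WT, Atf4 lay between -0.1 and 0.047 over libraries, and without WT mouse 1 Ern1 was -0.095, Atf4 0.071 and Ddit3 -0.035. In Tnfr2-/- cultures Atf4 lay between -0.021 and 0.024 and Dnajb9 between -0.001 and 0.147 over libraries, with -0.063 for Atf4 without mouse 2 and -0.123 for Dnajb9 without mouse 1. Over both genotypes Atf4 lay between -0.049 and 0.024, with 0.036 without WT mouse 1 and 0.02 without Tnfr2-/- mouse 1. Where an omission left 1 library in a group, that library was assumed to vary like the others.

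With 2 mice a genotype, animal spread is poorly known, Ern2 lies at a few units, and spliced Xbp1 cannot be separated.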

Other observations

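Over the 20 libraries, which come from 4 mice and share their days, Pearson's r of log2(value + 1) was 0.83 between Hspa5 and Pdia4, 0.80 between Hspa5 and Hsp90b1 and 0.78 between Hsp90b1 and Pdia4. It was lower for the other chaperones, at 0.49 to 0.56 between Dnajb9 and each of these 3, 0.39 to 0.62 between Sdf2l1 and each of them, and -0.08 between Dnajb9 and Sdf2l1. Ern2 went with Xbp1 (0.76) and against Hspa5 (-0.63), and Ern1 went with Ddit3 (0.61) and against Sdf2l1 (-0.75). The 5 genes outside the 10 most like Ern2 were Cyp2c68 (0.95), Ccl28, Hepacam2 and Myo1a (each 0.94) and Plcl2 (0.93). Those most like Ddit3 were Thy1 (0.83), P4ha2 (0.83), Ltbp2 (0.83), Ptprr and Ddah2 (each 0.82), and those most like Hspa5 were Nol10 (0.91), Cfdp1, Aida, Psmd14 and Thoc1 (each 0.90). These correlations are descriptions, and the genes outside the 10 were chosen as the highest of all genes tested.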
